A study of Homo sapiens with 6 samples.

Results

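Cancer-testis antigen genes were taken from the count table by symbol: members of the MAGEA, MAGEB, MAGEC, GAGE, PAGE, XAGE, SSX, CT45, CT47 and SPANX series, and the single genes LUZP4, PRAME, BRDT, SYCP1, TEX15, DDX43 and SAGE1. The rule matched 75 of the 36517 genes in the table, and 58 of them lay on the X chromosome. A pattern for the CTAG series matched, by letters alone, 11 CTAGE genes and no CTAG gene, and CTAG genes such as CTAG1B were not analysed here. The CTAGE genes were named for cutaneous T-cell lymphoma-associated antigens. SSX2IP, which encodes a centrosomal and junctional partner of SSX2, was likewise matched by its letters. None of those 12 lay on the X chromosome, so they are described apart from the other 63. The families were selected on the read counts of this same contrast between groups, so their differences are given as a description and not as tests.

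Messenger RNA was sequenced at day 3 in MDA-MB-453, a human breast cancer cell line of luminal character that expresses the androgen receptor. In the control group (n = 3) the cells carried a negative-control hairpin delivered by lentivirus, and in the shtRF group (n = 3) they carried a lentiviral hairpin against tRF-1-Ser, a small RNA released from the trailing end of a serine tRNA precursor. Both groups were thus transduced cells of one line, and no group without virus was analysed here. The sources call the replicates biological but do not say whether they were separate transductions, so the spread between libraries may be partly technical. The paper describes the sequenced knockdown cells as stable. If each group was a single stable population, a difference between populations and an effect of the hairpin cannot be told apart here. The spread between libraries would not measure such a difference. The question put to these genes was which were silent in both groups, which were constant and which switched between them.

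Cancer-testis genes are transcribed in the germ cells of the testis and are kept off in most somatic tissues by methylation of promoter DNA and by repressive histone marks. Many sit on the X chromosome in families of near-identical copies, and tumours can reactivate single members or whole groups of them. Peptides from their proteins can be shown to T cells, which is why they have been used as targets of cancer vaccines.

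Libraries held 63541413 to 78917459 counts. If each count is a separate fragment, a count of 0 allows up to 3 counts, which corresponded to 0.0376 to 0.0484 counts per 1000000 counts (CPM). Intervals and limits drawn from counts cover counting error only. Of the 9 luminal breast cancer markers, 9 were above 3 counts, with a summed level of 3220 to 3550 RPKM (reads per kilobase of exon and per 1000000 counted reads) in control and 3900 to 4170 RPKM in shtRF libraries, most of it XBP1. Markers of basal, mesenchymal or stromal cells summed to 3.47 to 4.19 RPKM in control and 2.34 to 2.43 RPKM in shtRF, most of it COL1A1, and those of blood and endothelial cells to at most 0.106 RPKM. Of 6 markers of testis germ cells, DDX4, DAZL and PRM1 did not exceed 2 counts in any library, PRM2 and TNP1 had no row in the table used here, and ACRV1 reached at most 23 counts.

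Most of the cancer-testis genes were at or near 0 in both groups. With silent defined as no more than 3 counts in every library, 41 of the 75 genes were silent. Every gene of the table had at least 1 count in some library, and of 137 RefSeq symbols that fit the rule 64 were not analysed here, so the tally covers only genes with a row. Of 74 members with transcript sequence, 26 shared most of their 75-base windows with transcripts of another gene. How reads that match several genes were counted is not known. A near-zero count of such a copy may therefore understate its transcription. Another 22 exceeded 3 counts in some library, never over 25, and did not pass the filter on low counts, and 12 had enough reads to be tested. The CTAGE series held 2 of the silent, 3 of the low and 6 of the tested genes, and SSX2IP was tested. Outside them, 58 genes were untested and 5 were tested. The count of 25 was that of CTAGE7P in control library 3. With a limit of 10 counts in place of 3, 60 genes were silent and 3 were low. Taken as a sum, the 63 untested genes, CTAGE genes among them, gave 83, 79 and 109 counts in control and 80, 84 and 53 counts in shtRF. In each library between 35 and 44 of the 63 were at 0. The filter removed any gene with many reads in either group from these sums, so they only describe what was left. Of the non-zero counts of these genes, 82.5% were even numbers (113 of 137), a pattern that arises where both mates of a read pair are counted, and the number of separate fragments was then smaller than the count.

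**Figure D1:**
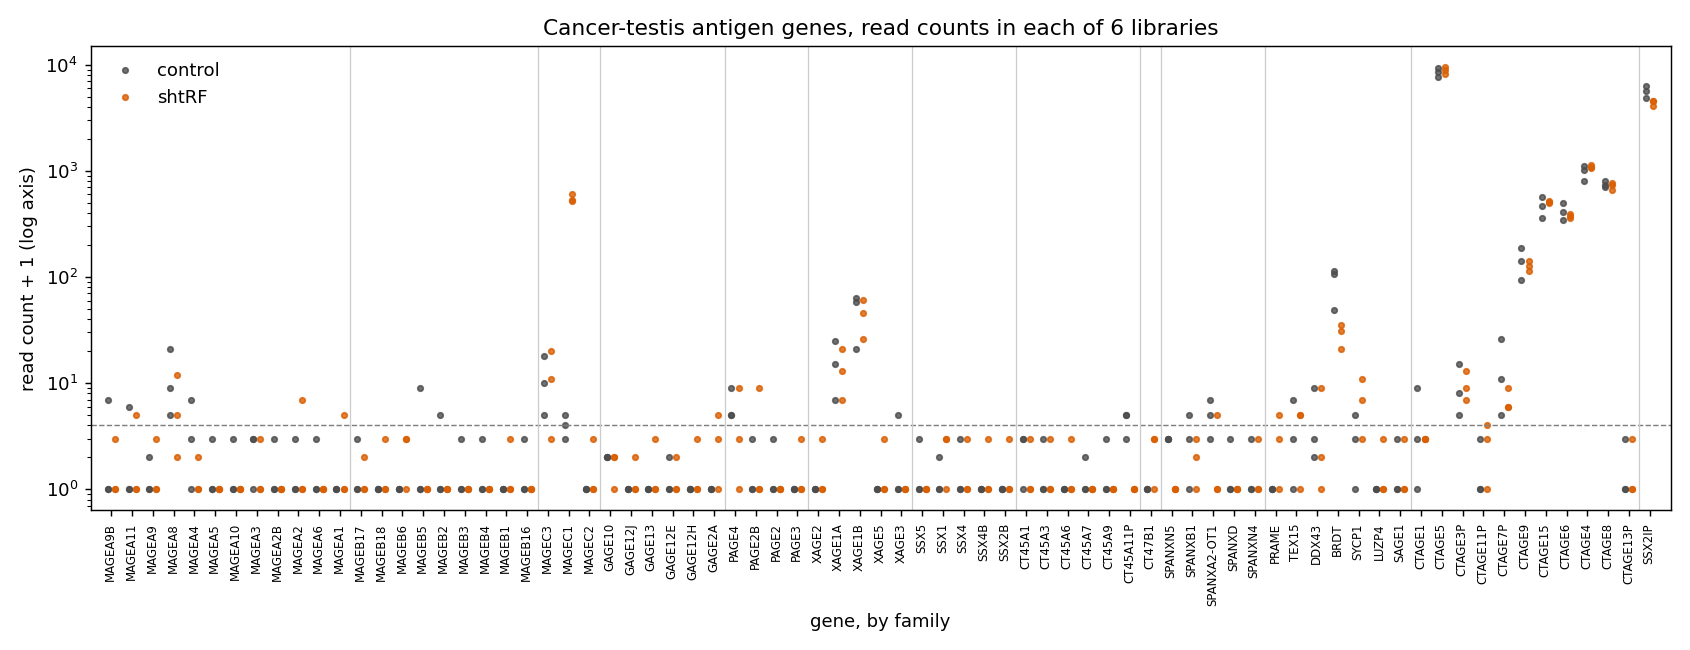
Read count plus 1 on a log axis for each of the 75 genes, ordered by family, with 1 point per library (grey, control, 3 libraries; orange, shtRF, 3 libraries); the dashed line marks 3 counts plus 1. Nearly all genes outside the CTAGE series and SSX2IP lie at or near the line, and MAGEC1 is the gene whose shtRF points, at 519 to 604 counts, stand far above its control points at 2 to 4 counts.

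The MAGEA genes, whose proteins share a domain that binds RING-type ubiquitin ligases, contributed 12 members and none was tested. MAGEA2B, MAGEA3, MAGEA5, MAGEA6, MAGEA9 and MAGEA10 were silent, and MAGEA1, MAGEA2, MAGEA4, MAGEA8, MAGEA9B and MAGEA11 were low. Summed over the 12 genes, there were 35, 15 and 16 counts in control and 11, 14 and 12 counts in shtRF. MAGEA8 held the most, with 20, 4 and 8 counts in control and 11, 4 and 1 in shtRF, and its groups overlapped. MAGEA1, the first human tumour antigen of this kind to be cloned, had 0 counts in 5 of 6 libraries and 4 counts in shtRF library 3. The 9 MAGEB genes were 7 silent and 2 low, with a highest count of 8, in MAGEB5 in control library 1.

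Counts were as low in most other X-linked series. The 6 GAGE genes did not exceed 4 counts, the 5 SSX genes and CT47B1 did not exceed 2, and the 4 PAGE genes did not exceed 8. SSX genes are known from the SS18-SSX fusions of synovial sarcoma, and the 5 of them were silent in every library by the limit on counts. SSX4 and SSX4B shared 100% of their 75-base windows, and SSX2B 86.8%, with other transcripts, so their counts are uncertain. The same holds for GAGE12E, CT45A6, CT45A7 and CT45A9, at 100% each. The SPANX series, named for proteins of the sperm nucleus, had 5 members including SPANXA2-OT1, an overlapping transcript that held its highest count of 6. Of the 5, 3 were silent and 2 were low, with sums of 10, 4 and 14 counts in control and 2, 5 and 2 counts in shtRF. Of the 5 XAGE genes, XAGE2 and XAGE5 were silent, XAGE3 was low with 4 counts in control library 2 and 0 elsewhere, and XAGE1A and XAGE1B had enough reads to be tested. Among the 6 CT45 genes, 5 were silent, and CT45A11P had 2, 4 and 4 counts in control and 0 in each shtRF library. A count of 0 allows up to 3 separate fragments, which is more counts where both mates are counted. CT45A11P was picked out here after its values were seen, lies at or near that limit in both groups and was not tested.

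Among the single genes, LUZP4, an mRNA export adaptor, and SAGE1 were silent, with at most 2 counts in a library. PRAME, which encodes a repressor of retinoic acid receptor signalling and is abundant in melanoma, had 0 counts in each control library and 2, 0 and 4 counts in shtRF. Of the meiotic genes, SYCP1, a protein of the synaptonemal complex, had 4, 2 and 0 counts in control and 10, 6 and 2 in shtRF, and TEX15 had 0, 6 and 2 counts in control and 4, 4 and 0 in shtRF. DDX43, an RNA helicase gene that shares 20.2% of its exonic bases with OOEP, had 1, 8 and 2 counts in control and 8, 0 and 1 in shtRF. The groups of each of these 4 genes overlapped.

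Among the 12 genes with enough reads, 3 were called higher (MAGEC1, CTAGE5 and CTAGE4), 2 were called lower (BRDT and SSX2IP) and 7 were not called, by edgeR's quasi-likelihood test at an adjusted p under 0.05 over 19628 genes. That is 41.7% called, beside 39.5% of all tested genes, of which 20.6% were higher and 18.9% were lower. Of the 12 genes, 6 belonged to the CTAGE series and another was SSX2IP, so this share mostly describes genes matched by letters. Outside them 5 genes were tested. MAGEC1 was called higher, BRDT was called lower, and MAGEC3, XAGE1A and XAGE1B were not called. Groups did not overlap on the CPM scale for 48.7% of all tested genes. The median log2 fold change was 0.06 over the 12 genes and -0.00 over all tested genes. Of the 7 genes not called, CTAGE6, CTAGE8, CTAGE9, CTAGE15 and XAGE1B were constant, and XAGE1A and MAGEC3 were measured too loosely to place.

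**Figure D2:**
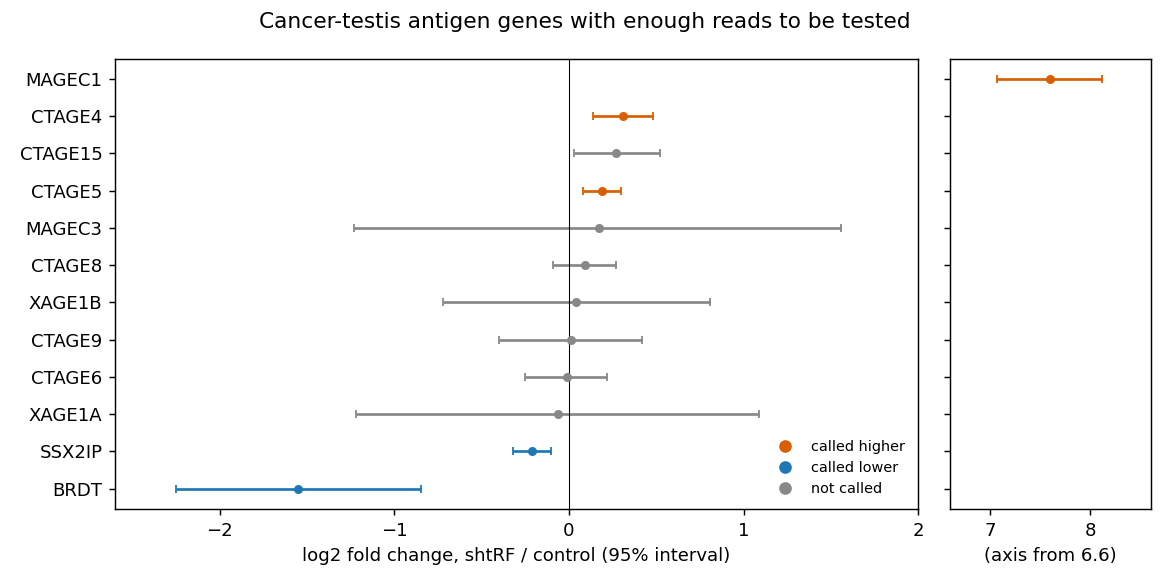
Log2 fold change of shtRF over control for the 12 genes that passed the filter on low counts, with 95% intervals (orange, called higher; blue, called lower; grey, not called; the axis is split so that MAGEC1 can be drawn in the right-hand panel). MAGEC1 stands at 7.60, BRDT at -1.55, and the other genes lie between -0.21 and 0.31.

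MAGEC1 switched from near 0 to a moderate level. The gene (X chromosome, GRCh38, chrX:141903894-141909388, plus strand) encodes a large MAGE protein best known from multiple myeloma. Its counts were 4, 3 and 2 in control and 519, 525 and 604 in shtRF. Every shtRF library lay far above every control library, and the shtRF libraries lay close to each other. On the CPM scale its level rose from 0.0421 ± 0.0183 to 8.26 ± 1.29 (SD, n = 3 per group), and per exon length from 0.01 ± 0.00438 to 1.90 ± 0.285 RPKM. The fitted log2 fold change was 7.60 ± 0.25 (SE), with a 95% interval of 7.07 to 8.12. MAGEC1 passed the filter on low counts only through the shtRF libraries, so its call and intervals are given as a description. As 9 control counts stood behind the low side, the ratio of the normalised sums, 201, had an exact 95% counting interval of 106 to 440. The fitted interval, whose SE was derived from the test statistic, is narrower than this and understates the uncertainty. With all counts halved, as for pairs counted by both mates, the ratio was 181 with an interval of 77.2 to 559. In bulk RNA, a few cells with many MAGEC1 transcripts and many cells with few cannot be told apart.

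Switched was defined as at most 0.1 CPM in all 3 libraries of one group and at least 1 CPM in all 3 of the other. Across the 36517 genes of the table, 1 gene was switched on in shtRF (0.00274%), and that gene was MAGEC1. In the other direction 1 gene was switched off (0.00274%), CA9, which is not a cancer-testis gene of the rule. In control, 20.1% of all genes in the table had a lower RPKM than MAGEC1, and in shtRF 70.9% did. Among tested genes alone, 0.143% were lower than MAGEC1 in control and 45.9% in shtRF. Of the counts of the 63 genes outside the CTAGE series and SSX2IP, MAGEC1 took 1.32% in control and 78.8% in shtRF. Those 63 genes summed to 217, 191 and 275 counts in control and to 694, 700 and 697 counts in shtRF, and without MAGEC1 to 213, 188 and 273 counts in control and 175, 175 and 93 counts in shtRF. MAGEC1 shared 0% of its 75-base transcript windows with any other annotated transcript and 0% of its exonic bases with another gene.

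Promoter sequences of MAGEC1, of its relative MAGEC2, which stayed silent, and of BRDT, which was called lower, are given 5′ to 3′ from 250 bases before to 50 bases after the RefSeq start (GRCh38.p14), with the C and G of each CpG, the site of DNA methylation, in capitals. The windows are chrX:141903644-141903943 on the plus strand for MAGEC1, chrX:142205241-142205540 on the minus strand for MAGEC2 and chr1:91949121-91949420 on the plus strand for BRDT.
MAGEC1: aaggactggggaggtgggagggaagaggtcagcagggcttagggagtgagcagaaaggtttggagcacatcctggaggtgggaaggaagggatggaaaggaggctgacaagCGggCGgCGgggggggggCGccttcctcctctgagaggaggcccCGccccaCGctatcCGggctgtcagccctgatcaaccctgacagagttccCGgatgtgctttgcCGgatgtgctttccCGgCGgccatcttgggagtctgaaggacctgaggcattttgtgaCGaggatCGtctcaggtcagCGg
MAGEC2: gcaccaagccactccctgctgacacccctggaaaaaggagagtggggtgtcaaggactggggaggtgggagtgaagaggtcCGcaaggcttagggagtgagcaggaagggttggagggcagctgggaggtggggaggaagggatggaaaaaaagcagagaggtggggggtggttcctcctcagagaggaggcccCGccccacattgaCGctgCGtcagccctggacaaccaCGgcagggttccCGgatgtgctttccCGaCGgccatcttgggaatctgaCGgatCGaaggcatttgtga
BRDT: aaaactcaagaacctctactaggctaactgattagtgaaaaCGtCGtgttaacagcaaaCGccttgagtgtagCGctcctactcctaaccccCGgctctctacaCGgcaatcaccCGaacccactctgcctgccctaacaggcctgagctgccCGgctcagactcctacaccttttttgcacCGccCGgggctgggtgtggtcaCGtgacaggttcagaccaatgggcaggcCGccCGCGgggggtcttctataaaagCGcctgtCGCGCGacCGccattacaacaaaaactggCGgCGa

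In an alignment of the MAGEC1 and MAGEC2 windows, 213 of 246 aligned bases were identical (86.6%). MAGEC1 had 14 CpG sites in its 300 bases, MAGEC2 had 10 and BRDT had 21. Over 27305 promoters of this length the median was 14 CpG sites, and over the 51 promoters found for the genes outside the CTAGE series and SSX2IP it was 11.0, with a range of 1 to 21. More CpG sites than in MAGEC1 were found in 10 of those 51 promoters. Methylation was not measured here.

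The MAGEC1 window holds the letters CCGGATGT at 2 places and MAGEC2 holds them once. GGAA and GGAT are cores that ETS-family factors can bind, and this motif was chosen after the sequences had been read. Searched on both strands, CCGGATGT stood in 9 of the 51 promoters (17.6%) and in 0.725% of all 27305 promoters. All 9 were MAGE genes, out of 20 MAGE promoters: MAGEA2, MAGEA2B, MAGEA4, MAGEA9, MAGEA9B, MAGEA11, MAGEB2, MAGEC1 and MAGEC2. The 9 include MAGEC1 and MAGEC2, whose windows had been read when the motif was chosen. MAGEA2 and MAGEA2B, and likewise MAGEA9 and MAGEA9B, share most of their transcript windows. The 9 promoters are thus not independent, and the share is a description. More than a single copy was present in 3 of all promoters (0.011%), MAGEC1 among them. The related CCGGAAGT, which no match of CCGGATGT can also be, stood in 1 of the 51 promoters (1.96%) and in 4.44% of all. These matches are letters in a window, and binding was not measured.

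None of the 3 tested neighbours of MAGEC1 on the X chromosome was called in either direction, beside 39.5% of all tested genes called. So few genes say little about the region. MAGEC3, the nearest gene at 6.06 kb upstream on the same strand (chrX:141838316-141897832), had 9, 17 and 4 counts in control and 19, 2 and 10 in shtRF. Its groups overlapped, and its log2 fold change of 0.17 ± 0.67 had an interval from -1.23 to 1.56, too wide to call it constant. MAGEC2, at 293 kb on the other side, had 0 counts in 5 libraries and 2 in shtRF library 2. LDOC1, a retrotransposon-derived regulator gene 727 kb away, had 1449, 1669 and 1404 counts in control and 1459, 1299 and 1322 in shtRF. The log2 fold change of LDOC1 was -0.02 ± 0.09 (edgeR adjusted p = 0.876), with an interval of -0.20 to 0.16. Of the 12 genes within 1 Mb, 3 were tested, the remaining one being RP3-507I15.2 (log2 fold change -0.64 ± 0.56, edgeR adjusted p = 0.394). Its interval of -1.8 to 0.51 was also too wide to call it constant. The 9 others had at most 6 counts.

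**Figure D3:**
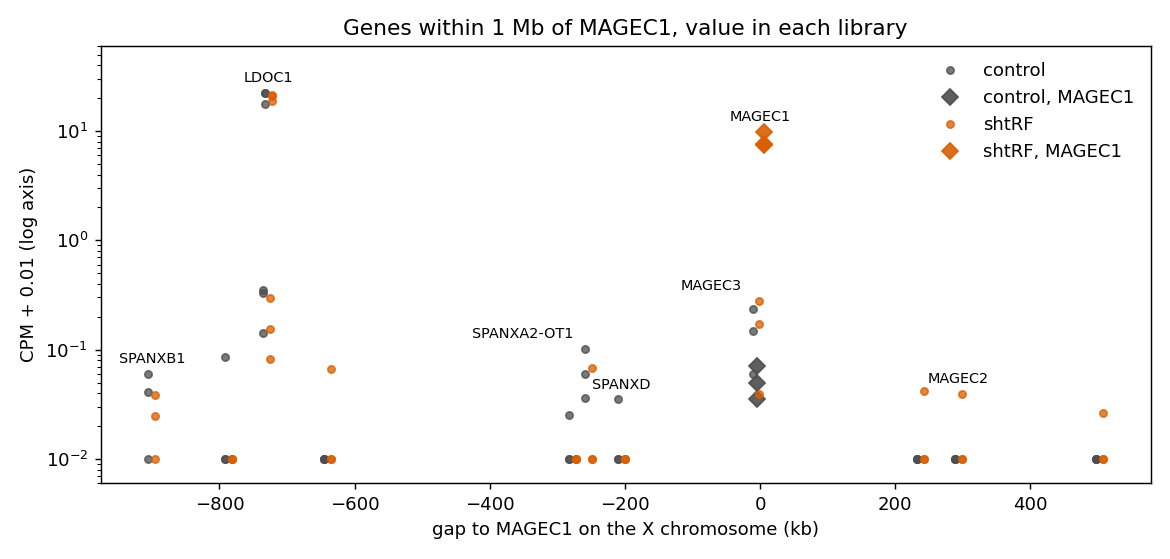
CPM plus 0.01 on a log axis for the genes within 1 Mb of MAGEC1, against the gap to MAGEC1 in kb, with 1 point per library (grey, control; orange, shtRF; diamonds, MAGEC1). MAGEC1 in shtRF lies at 7.39 to 9.74 CPM, MAGEC3 next to it stays at or below 0.271 CPM in every library, and LDOC1 lies at 17.6 to 22.3 CPM in both groups.

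BRDT was called lower. It encodes the testis member of the BET bromodomain proteins, which read acetylated histones, and lies on chromosome 1 (chr1:91949371-92014426). Its counts were 105, 48 and 114 in control and 30, 34 and 20 in shtRF. The groups did not overlap, although control library 2 lay nearer to the shtRF libraries than to the other control libraries. The mean level was 1.23 ± 0.52 CPM with the control hairpin and 0.415 ± 0.0869 CPM with shtRF, or 0.288 ± 0.121 and 0.0939 ± 0.0192 RPKM. The log2 fold change was -1.55 ± 0.34, with an interval of -2.25 to -0.85. None of its transcript windows (0%) was shared with another transcript.

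XAGE1A and XAGE1B, the only other X-linked members to pass the filter apart from MAGEC1 and MAGEC3, are copies of one gene known from Ewing sarcoma and prostate cancer. XAGE1A had 6, 14 and 24 counts in control and 20, 12 and 6 in shtRF, and XAGE1B had 20, 57 and 63 counts in control and 45, 60 and 25 in shtRF. Since 100% of the windows of XAGE1A and 76.3% of those of XAGE1B were shared, the split of reads between them is uncertain and they were also summed. The sum was 0.4, 0.94 and 1.09 CPM in control and 0.925, 1.05 and 0.5 CPM in shtRF, a mean of 0.810 ± 0.363 against 0.825 ± 0.288 CPM. On that sum, the shtRF libraries lay within the range of the control libraries. The log2 fold change of XAGE1B was 0.04 ± 0.37 (-0.72 to 0.81), within the limits of -1 and 1 set for constant, and that of XAGE1A was -0.06 ± 0.56 (-1.22 to 1.09), which is not.

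The CTAGE genes and SSX2IP held most of the counts of the list. CTAGE5, a gene for the export of large cargo from the endoplasmic reticulum, had 7739, 8617 and 9236 counts in control and 8952, 9507 and 8130 in shtRF. Scaled to library size, it stood at 116 ± 2.49 CPM in control libraries against 132 ± 5.60 CPM, without overlap. The log2 fold change was 0.19 ± 0.05, and without shtRF library 2 it was 0.16 and no longer called. CTAGE5 shares 42.9% of its exonic bases with other annotated genes, mainly RP11-407N17.3, whose log2 fold change was 0.18 ± 0.05, and the reads of the pair could not be told apart.

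Of the 5 tested CTAGE copies without introns, CTAGE4 was called higher. CTAGE4 had 800, 1022 and 1113 counts in control and 1130, 1066 and 1095 in shtRF, or 13.3 ± 0.856 and 16.4 ± 1.11 CPM, with a log2 fold change of 0.31 ± 0.08. CTAGE8, with 702, 727 and 807 counts in control and 740, 772 and 657 in shtRF, had a log2 fold change of 0.09 ± 0.09. As 97.2% of the windows of CTAGE4 and 99.0% of those of CTAGE8 occurred in other transcripts, the assignment of reads to single copies is uncertain. CTAGE6 (-0.01 ± 0.11) and CTAGE9 (0.01 ± 0.20) were not called and, with CTAGE8, were constant. CTAGE15 (0.27 ± 0.12) was not called either and met the limits for constant, but its interval of 0.03 to 0.52 lay above 0, and it was called higher without control library 2 (0.41) and with a replicate block (0.28). The 5 copies summed to 35.3, 37.9 and 38.4 CPM in control and 40.8, 42.0 and 44.0 CPM in shtRF, a ratio of 1.14 between the means, and the groups did not overlap.

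SSX2IP (chr1:84643707-84690803) was called lower by a small amount. Its counts were 4829, 5633 and 6267 in control and 4585, 4523 and 4082 in shtRF, or 75.8 ± 2.37 and 65.7 ± 0.329 CPM. The log2 fold change was -0.21 ± 0.05, with an interval of -0.32 to -0.10. Neither group reached the other on either scale.

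Cancer-testis genes outside these families were examined from a list of 71 symbols, of which 68 were matched in the table, 2 of them by an older symbol. NXF2 was matched in this way to TCP11X2, which may be another gene and had at most 2 counts. Of the 68, 30 were tested. Of these, 5 were higher (16.7%, beside 20.6% of all tested genes) and 5 were lower (16.7%, beside 18.9%), with a median log2 fold change of -0.09, and the untested ones held at most 24 counts. Without control library 2 or shtRF library 3, 3 were higher. PASD1, an X-linked gene for a testis protein related to the clock factor CLOCK, had the largest log2 fold change among them and was singled out after its values were seen. It had 2, 0 and 6 counts in control and 35, 32 and 29 in shtRF, with a log2 fold change of 3.66 ± 0.64, given as a description because it passed the filter on low counts only through the shtRF libraries. At 0.477 ± 0.0182 CPM in shtRF it remained below the 1 CPM of the switched class. The other called genes changed by less than 2-fold. SPAG1 (0.73), LYPD6B (0.49), STAG3 (0.23) and SPAG9 (0.18) were higher on the log2 scale, and TTK (-0.58), CABYR (-0.39), NUF2 (-0.38), KIF2C (-0.24) and SMC1B (-0.23) were lower. TTK, NUF2 and KIF2C are mitotic genes of every dividing cell, and SMC1B and STAG3 are subunits of the meiotic cohesin.

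MAGE genes that are expressed in somatic tissues were set beside their testis-restricted relatives. The table held 10 of them, and among the 6 that were tested none was higher and 2 were lower, MAGED2 by -0.19 (edgeR adjusted p = 0.0202) and MAGED1 by -0.15 (edgeR adjusted p = 0.0303) on the log2 scale. The number called lower was 1 without control library 1, shtRF library 1 or shtRF library 2, and 0 without control library 2 or shtRF library 3. MAGEF1 averaged 134 ± 7.11 CPM in control against 132 ± 3.85 CPM. The median over the 6 was -0.02. Of the 1252 X-linked genes outside the rule 625 were tested, 21.3% were higher and 20.6% were lower, with a median log2 fold change of 0.00, against 20.6% and 18.9% of all tested genes.

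Regulators of DNA methylation and repressive chromatin, the systems that act on cancer-testis promoters in somatic cells, were examined from a list of 40 genes, and all 40 were tested. Of these, 20 were lower (50%, beside 18.9% of all tested genes), 6 were higher (15.0%, beside 20.6%) and 14 were not called, with a median log2 fold change of -0.15. Without control library 2, 3 were higher, and with each library left out in turn 17 to 19 were lower. The listed genes were not matched in level to all tested genes. CDCA7, which brings the remodelling enzyme HELLS to nucleosomes, had 3096, 3575 and 3678 counts in control and 1060, 983 and 877 in shtRF, a log2 fold change of -1.69 ± 0.06 (edgeR adjusted p = 6.1e-15). DNMT3B, a de novo DNA methyltransferase, had 996, 1126 and 1157 counts in control and 345, 359 and 341 in shtRF, a log2 fold change of -1.52 ± 0.09 (edgeR adjusted p = 1.3e-11). TET1, which oxidises methylated cytosine and so works in the opposite sense, had 120, 124 and 97 counts in control and 38, 32 and 36 in shtRF, a log2 fold change of -1.56 ± 0.26 (edgeR adjusted p = 4.39e-05). For each of these 3 genes, named for the size of their change, the shtRF libraries all lay below the control libraries. Groups did not overlap in CPM for 48.7% of all tested genes.

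DNMT1, which copies methylation after replication, had a log2 fold change of -0.00 ± 0.06 (edgeR adjusted p = 0.965), and UHRF1, which guides it, of -0.18 ± 0.06 (edgeR adjusted p = 0.0271), a call lost without control library 1, control library 3 or shtRF library 1. DNMT3A, the other de novo enzyme, had a log2 fold change of -0.23 ± 0.06 (edgeR adjusted p = 0.00244). HELLS was higher by 0.22, and MAX, a partner of the MGA and PCGF6 repressor complex, by 0.45, while PCGF6 (-0.48) and MGA (-0.18) were lower. TET3 (-0.63) and TET2 (-0.35), which act like TET1, were lower too. Of the histone methyltransferases, SETDB1 (-0.49) and EZH2 (-0.37) were lower, and EHMT1 (-0.00), EHMT2 (0.12), SUV39H1 (-0.20) and SUV39H2 (-0.15) were not called. Of the deacetylases, HDAC1 (-0.41) and HDAC2 (-0.35) were lower and HDAC3 (-0.09) was not called. Whether any of these differences bears on MAGEC1 was not tested.

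**Figure D4:**
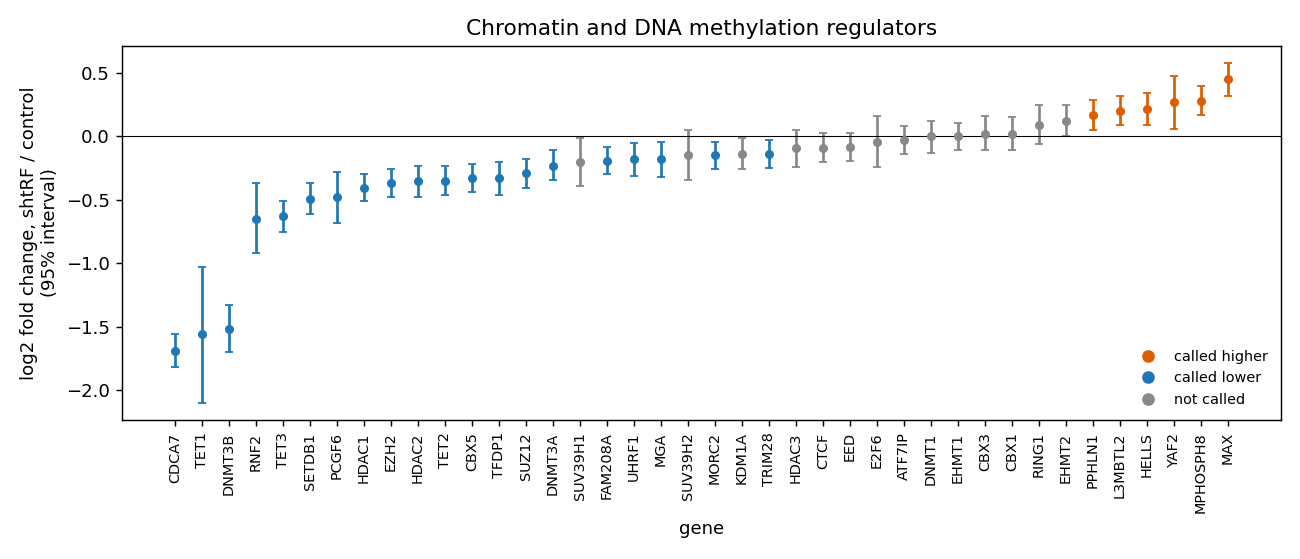
Log2 fold change of shtRF over control for 40 regulators of DNA methylation and repressive chromatin, with 95% intervals (orange, called higher; blue, called lower; grey, not called). CDCA7, TET1 and DNMT3B stand apart at -1.69 to -1.52, 20 genes are lower and 6 are higher.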

How the data were processed

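mRNA libraries of 6 samples (3 control, 3 shtRF, grouped by sample title) were sequenced as stranded read pairs. The authors deposited raw read counts per gene with exon coordinates. The submitters' processing notes name Trimmomatic 0.36, featureCounts of Subread 1.5.1, edgeR 3.12.1 and GRCh38; the aligner and annotation release are not given in the sources used here. Even numbers prevailed among low counts, as where both mates are counted. A deposited RPKM table was not used, and RPKM was computed from counts, exonic length and library totals.

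edgeR 4.0.16 in R 4.3.3 was run on all 36517 genes: filterByExpr (minimum count 10), TMM, quasi-likelihood test with group as the only term, and Benjamini-Hochberg adjustment over 19628 genes. The fit was tested on simulated data. TMM factors lay between 0.9613 and 1.026 and the common dispersion was 0.00572. CPM used TMM-scaled totals. Standard errors of log2 fold changes, and the 95% intervals from them, were derived from the estimate and its F statistic. Constant meant tested, not called and a 95% interval within -1 to 1. Shared sequence was the share of 75-base windows of GENCODE transcripts found in another gene. Genes outside the families were named if called with a log2 fold change above 1 or below -1 and at least 1 CPM, together with the DNA methyltransferases and UHRF1; neighbours were tested genes within 1 Mb; others named are examples. The members and lists were chosen with earlier results of these data known. Alternatives were RLE scaling, other filters, DESeq2 1.42.0, halved counts, a replicate block and leaving out each library.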

Additional observations from a re-analysis of the deposited data

How the results depend on the processing

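MAGEC1 stayed called higher (log2 fold change 7.32 to 7.92) and BRDT called lower (-1.87 to -1.32) under every alternative that tested them. For MAGEC1 this is a description, as it passed the main filter only through the shtRF libraries. BRDT was not tested at 1 CPM or more in 3 libraries, where members called lower numbered 1. PASD1 ranged from 3.08 to 4.89. Without a filter beyond 1 count, 1 somatic MAGE gene was lower. With a floor of 10 counts, 3 members were low and 60 silent. Leaving out each library in turn gave 2 to 4 members higher and 2 lower, and 3 to 6 other cancer-testis genes higher. It also gave 3 to 6 silencing regulators higher and 17 to 19 lower, and 0 to 2 somatic MAGE genes lower. Deviations from group means of same-numbered libraries correlated by 0.06, 0.02 and 0.02, so the numbers were not taken to pair libraries. With the replicate block, 4123 genes of all were higher and 3776 lower, and 4 members were higher and 2 lower, the added call being CTAGE15 (0.28), which was also called without control replicate 2 (0.41); the block ended no named call. CTAGE5 lost its call without shtRF replicate 2 (0.16).

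Log2 fold changes near 0 changed sign. CTAGE9 was -0.01 at 1 CPM or more and -0.01 with halved counts. With each library left out in turn, CTAGE9 ran from -0.15 to 0.21, CTAGE6 from -0.07 to 0.06, XAGE1A from -0.52 to 0.41, XAGE1B from -0.27 to 0.28, MAGEC3 from -0.55 to 0.72, DNMT1 from -0.06 to 0.04 and LDOC1 from -0.12 to 0.03. Of 244 values of 21 named genes, 220 kept direction and call. The cause of these shifts was not tested. Depth limits the 63 untested members most, since 3 counts correspond to up to 0.0484 CPM.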
